A study of Homo sapiens with 4 samples.

Results

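CD55, CD46 and CD59 are 3 membrane-bound proteins with which human cells hold complement in check. Their transcripts were read from gene-level read counts of A375 cells, a human BRAF-mutated malignant melanoma line grown in DMEM with high glucose and fetal bovine serum. The 3 genes were picked by symbol from 46416 gene-table entries, and all 3 were among the 7916 protein-coding genes with 10 counts or more in some library. They were picked with results of these data known, in particular the difference of CD55 between the lines, so every value below describes the libraries and none is a test. The study compared A375-R, a line labelled as resistant to the BRAF inhibitor encorafenib, with the sensitive A375-S. Each line was left without treatment or given 10 nM encorafenib for 48 h, with 1 library per group, so spread between replicates was not observed. The sources used here do not say how A375-R was derived or whether it is 1 clone.

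Complement is a cascade of blood proteases that deposits C3 and C4 fragments on surfaces and ends in a pore, the membrane attack complex. CD55, or decay-accelerating factor, takes apart the convertases that cleave C3 and C5. CD46, or membrane cofactor protein, helps the serum protease factor I cut deposited C3b and C4b. CD59, or protectin, stops C9 from completing the pore. CD55 and CD59 are held by a glycosylphosphatidylinositol (GPI) anchor, while CD46 spans the membrane. Tumour cells, melanoma cells among them, commonly carry all 3, which limits killing by antibody and complement.

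The genes lie in different places. CD55 (Entrez 1604) spans chr1:207321376-207386804 on the plus strand and CD46 (Entrez 4179) chr1:207752057-207795513, also on the plus strand, in the cluster of complement regulator genes. CD59 (Entrez 966) spans chr11:33703010-33736491 on the minus strand. These are GENCODE 29 coordinates on GRCh38, given for orientation only, since the reads were placed on hg19. No exon of the 3 genes overlaps an annotated small RNA gene, and no other entry had the same counts. CD59 shares its locus with a second annotated protein-coding gene on the same strand, AL049629.2. CD46 shares its own with an unprocessed pseudogene on the same strand, CDCA4P4. The treatment of reads common to such pairs is unknown from the sources used here.

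The 250 bases before each gene's first listed RefSeq start (GRCh38.p14) are shown because CD55 and CD59 differed in opposite directions with the drug in sensitive cells. They read 5′ to 3′ on the gene's own strand, for CD55 at chr1:207321428-207321677, for CD46 at chr1:207751788-207752037 and for CD59 at chr11:33736480-33736729. Capitals mark matches on either strand to the letters GGGCGG (GC box), TGACG (half-site of CREB and ATF factors), TGANTCA (AP-1) and CCGGAAG (ETS), the last 3 being sites of factor families that ERK signalling acts on. No match in these windows overlaps another.
CD55: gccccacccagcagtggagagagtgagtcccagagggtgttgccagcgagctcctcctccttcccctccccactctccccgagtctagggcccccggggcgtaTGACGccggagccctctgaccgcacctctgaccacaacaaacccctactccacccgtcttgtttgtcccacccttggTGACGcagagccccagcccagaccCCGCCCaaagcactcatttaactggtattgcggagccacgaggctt
CD46: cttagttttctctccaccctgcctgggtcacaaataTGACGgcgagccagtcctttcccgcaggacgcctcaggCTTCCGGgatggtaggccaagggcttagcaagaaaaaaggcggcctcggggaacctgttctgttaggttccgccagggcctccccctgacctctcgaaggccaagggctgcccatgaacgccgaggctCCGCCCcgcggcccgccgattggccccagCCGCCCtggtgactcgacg
CD59: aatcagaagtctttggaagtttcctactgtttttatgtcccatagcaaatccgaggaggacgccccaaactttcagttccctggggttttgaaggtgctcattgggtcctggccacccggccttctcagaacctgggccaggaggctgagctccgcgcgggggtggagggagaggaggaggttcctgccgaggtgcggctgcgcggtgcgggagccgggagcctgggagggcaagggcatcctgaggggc
The CD55 window holds 1 GC box and 2 TGACG half-sites. The CD46 window holds 2 GC boxes, 1 half-site and 1 ETS match, and the CD59 window holds 0 of the 4 motifs. Of 35116 such windows of 27305 genes, 42.6% hold a GC box, 21.2% the half-site, 6.57% the AP-1 and 8.52% the ETS letters. The CD55 window lies inside the GENCODE 29 span of CD55, which starts at chr1:207321376. CD46 has 2 listed start windows, of which the second has 3 GC boxes. CD59 has 4 listed start windows, of which the second has 2 GC boxes and the fourth 2 AP-1 matches. Which start these cells used cannot be read from gene counts. A match is a string of letters and not a bound site.

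Depth set the precision. Libraries were made with SMARTer smRNA-Seq kits, a small RNA protocol. Ranks, levels per kilobase and ratios between genes may therefore differ from those of full-length mRNA, which was not tested. Gene-table totals ran from 20507667 to 33664470 counts, of which rRNA took 88.7% to 93.8%. For protein-coding genes this left 326919 counts in resistant cells without and 307026 with the drug, and 435351 and 215894 in sensitive cells, the last being 0.845% of its library against 1.29% to 1.497% in the others. Scaled counts below are raw counts after TMM scaling to the geometric mean library, on which the limit of 3 counts that a count of 0 allows lies between 2.15 and 4.24. Where 4 values stand in a row they are given as resistant cells without and with the drug, then sensitive cells without and with it. Intervals are 95% and cover counting error only. MAPK output genes, which fall when BRAF is blocked, had intervals below 0 with the drug in 10 of 13 members in each line, beside 13.8% of protein-coding genes in the sensitive and 9.32% in the resistant line. The melanocyte factor SOX10 was present at 94, 86, 157 and 73 counts in the same library order, while the pigment genes MLANA and TYR were at 0 in all 4 libraries. The pigment enzyme DCT had 1, 145, 0 and 332 counts, MITF 19, 59, 31 and 45 and S100B 49, 134, 53 and 63, so these 3 were higher in the treated libraries, where CD55 was lower, and their part in its values was not tested. In bulk RNA, fewer cells that express a gene and less of its RNA per cell cannot be told apart.

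CD55 carried most of the difference among the 3 genes. Resistant cells had 1021 counts of it without the drug and 139 with it, and sensitive cells 271 and 28. Scaled, these are 997 (937 to 1060), 140.4 (118 to 166), 194 (172 to 219) and 39.6 (26.3 to 57.2), and no neighbouring pair of these intervals overlaps. The resistant line was the higher of the lines with and without the drug, and the drug-treated library the lower in each line. In untreated resistant cells CD55 ranked 22 among 12033 protein-coding genes with at least 1 count, and in treated sensitive cells it ranked 1336 among 11374. Its ranks were 175 in untreated sensitive and 253 in treated resistant cells.

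CD59 had its lowest level in untreated sensitive cells and stood close to 1 level in the other libraries. Its counts were 162 without and 170 with the drug in resistant cells and 98 and 148 in sensitive cells, or 158 (135 to 185), 172 (147 to 200), 70.2 (57.0 to 85.6) and 209 (177 to 246) scaled. The intervals of the 3 higher libraries overlap one another, and that of untreated sensitive cells lies below all of them.

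CD46 was the least abundant of the 3 by raw count and could not be ordered across libraries. Resistant cells had 35 counts without and 32 with the drug, and sensitive cells 36 and 15. Scaled levels were 34.2 (23.8 to 47.5), 32.3 (22.1 to 45.6), 25.8 (18.1 to 35.7) and 21.2 (11.9 to 35.0), and all 4 intervals overlap.

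**Figure D1:**
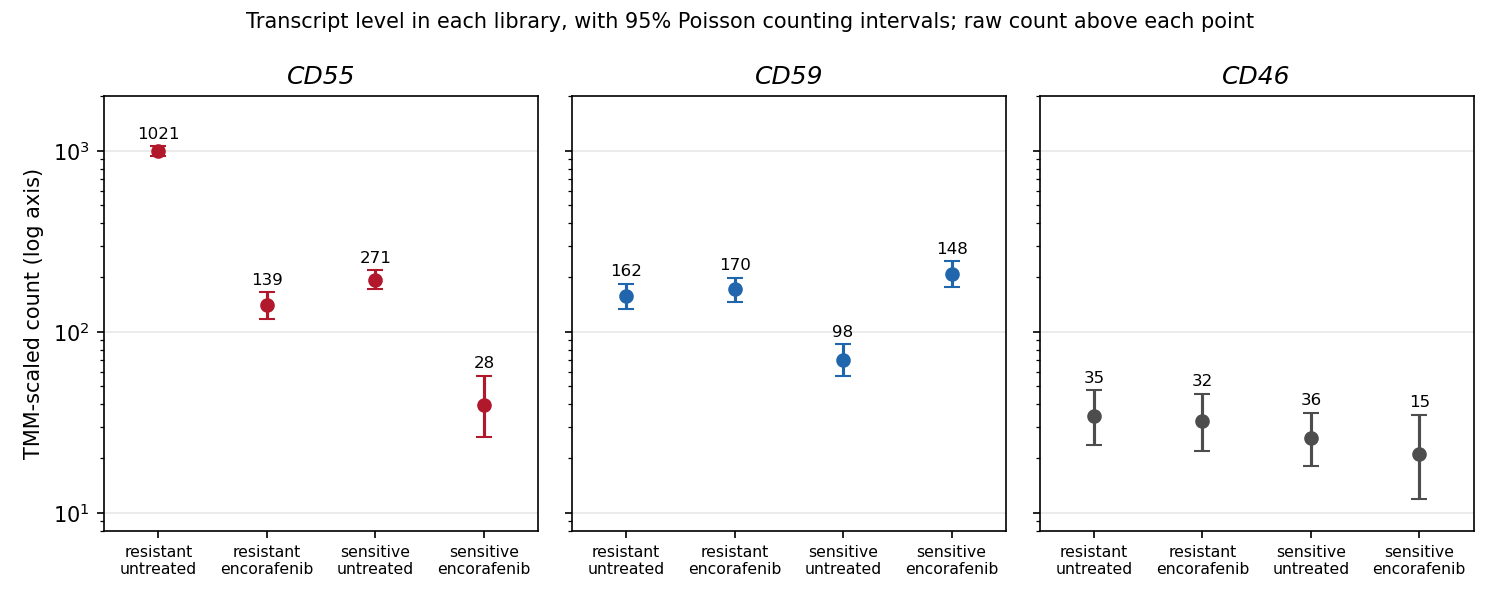
TMM-scaled counts (log axis) of CD55, CD59 and CD46 in the 4 libraries, 1 point per library with its 95% Poisson interval and the raw count above it. CD55 runs from 39.6 to 997, CD59 from 70.2 to 209, and CD46 stays between 21.2 and 34.2 with overlapping intervals.

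Per length, CD55 led in 3 libraries and CD59 in the fourth. Scaled counts per kilobase of merged protein-coding exons (4633 bases for CD55, 8218 for CD59 and 3371 for CD46) were 215 (202 to 229) for CD55, 19.3 (16.4 to 22.5) for CD59 and 10.1 (7.06 to 14.1) for CD46 in untreated resistant cells. In untreated sensitive cells the levels per kilobase were 41.9 (37.1 to 47.2), 8.55 (6.94 to 10.4) and 7.65 (5.36 to 10.6), so CD59 and CD46 could not be ordered there. In treated resistant cells they were 30.3 (25.5 to 35.8), 20.9 (17.9 to 24.3) and 9.59 (6.56 to 13.5). In treated sensitive cells CD59 stood at 25.5 per kilobase (21.5 to 29.9), above CD55 at 8.55 (5.68 to 12.4) and CD46 at 6.29 (3.52 to 10.4), and the last pair overlap. Dividing by the longest annotated transcript kept CD55 first in 3 libraries and CD59 first in treated sensitive cells.

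Each library enters 2 of the 4 pairs compared below, so line and drug ratios of a gene are not independent of each other. Between the untreated lines, CD55 was 5.13-fold higher in resistant cells (4.49 to 5.89), a log2 ratio of 2.36 (2.17 to 2.56). Its ratio was the 11th from the top among the 1659 protein-coding genes that had 50 counts or more in either library. CD59 was 2.25-fold higher (1.74 to 2.93), with an interval above 0 that does not reach 2-fold at its near bound. CD46 stood at 1.33-fold (0.808 to 2.17), not a detectable difference at this depth. CD55 alone was beyond 2-fold at the bound nearest 0, where 1.01% of the 7916 protein-coding genes tested were higher and 0.808% lower. Since CD55 was picked for this contrast, nothing is read from that count. The median protein-coding gene stood at -0.02 in log2.

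Under encorafenib, CD55 stood 3.496-fold above its sensitive level in resistant cells (2.35 to 5.53), a log2 ratio of 1.81 (1.23 to 2.47). It ranked 15 from the top among 1085 genes with at least 50 counts in either library. CD59 stood at -0.29 in log2 (-0.61 to 0.04) and CD46 at 0.58 (-0.32 to 1.60), and each interval includes 0. The CD59 interval lay just below 0 with size factors as in DESeq2 (-0.67 to -0.01) and with a minimum of 50 counts (-0.69 to -0.04), and under total counts CD46 stood at 1.38 (0.48 to 2.40). CD55 was again the 1 member of 3 beyond 2-fold, where 0.682% of protein-coding genes were higher and 0.48% lower, and the median gene stood at 0.05. Under scaling by total counts CD59 was the higher in treated resistant cells, at 0.52 (0.19 to 0.84), so its direction between treated lines depends on the scaling.

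Encorafenib went with less CD55 transcript in each line. In sensitive cells CD55 was 4.83-fold lower (3.32 to 7.52), with 28 counts against 271, a log2 ratio of -2.27 (-2.91 to -1.73). CD55 ranked 74 from the bottom there among 1656 genes with at least 50 counts in either library. In resistant cells it was 7.08-fold lower (5.94 to 8.54), with 139 against 1021, a log2 ratio of -2.82 (-3.09 to -2.57), and ranked 19 from the bottom among 1296 genes with at least 50 counts. The difference between these drug ratios, resistant minus sensitive, was -0.55 in log2 (-1.16 to 0.06). It was -0.62 (-1.23 to -0.01) with size factors as in DESeq2, -0.64 (-1.26 to -0.03) with a minimum of 50 counts and 0.15 (-0.46 to 0.76) under total counts, so whether the interval includes 0, and the sign, depend on the scaling. Treated resistant cells had 140.4 scaled counts of CD55 against 194 in untreated sensitive cells.

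CD59 did not share that direction. In sensitive cells it was 2.98-fold higher with the drug (2.29 to 3.89), a log2 ratio of 1.57 (1.20 to 1.96). In resistant cells it stood at 0.12 (-0.20 to 0.44). The drug ratios differed by -1.45 (-1.94 to -0.97), resistant minus sensitive, or by -0.75 (-1.23 to -0.27) under total counts. That scaling also took the ratio in sensitive cells to 0.99 (0.62 to 1.38), short of 2-fold at its bound, and the treated sensitive library had the smallest protein-coding share, whose part in the result was not tested. For CD46 the drug ratios were -0.25 (-1.26 to 0.62, sensitive line) and -0.08 (-0.82 to 0.65, resistant line), and each interval includes 0.

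With the drug, 1 of 3 members was higher and 1 lower beyond 2-fold in sensitive cells, where 2.15% of protein-coding genes were higher and 2.48% lower. In resistant cells 0 of 3 were higher and 1 was lower, where 1.16% and 1.52% of protein-coding genes were. Median protein-coding genes stood at -0.06 and -0.01.

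**Figure D2:**
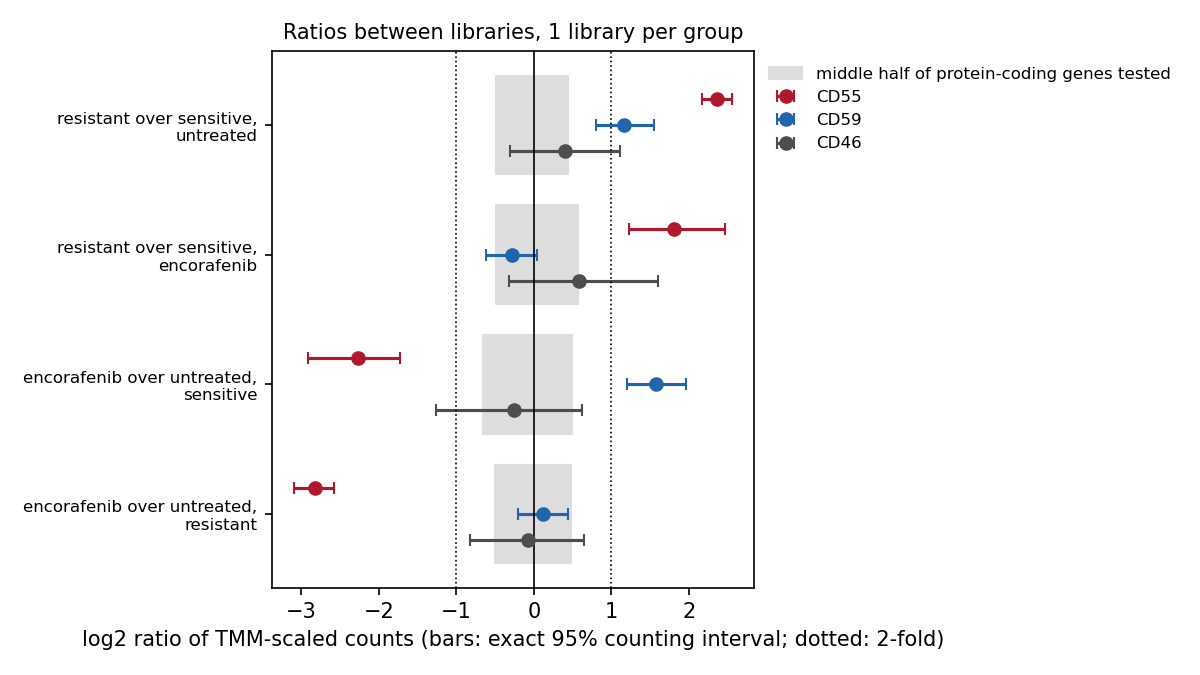
Log2 ratios of TMM-scaled counts for the 3 genes in 4 pairs of libraries (rows), with exact 95% counting intervals, dotted lines at 2-fold and a grey band for the interquartile range of protein-coding genes tested. CD55 lies at 2.36 and 1.81 between lines and at -2.27 and -2.82 with the drug, while CD59 lies at 1.57 with the drug in sensitive cells and CD46 has an interval across 0 in each row.

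Ratios of 2 genes within a library do not depend on the scaling, and they set CD55 against CD59 directly. CD55 had 6.30 counts for each CD59 count in untreated resistant cells (5.33 to 7.49) and 0.818 in treated resistant cells (0.649 to 1.03). In sensitive cells it had 2.77 without the drug (2.19 to 3.52) and 0.189 with it (0.122 to 0.285). The ratio was thus 7.69-fold lower with the drug in resistant (5.77 to 10.3) and 14.5-fold lower in sensitive cells (9.001 to 24.1). Between lines it was 2.28-fold higher in resistant cells without the drug (1.69 to 3.05) and 4.31-fold higher with it (2.68 to 7.12). Against CD46, CD55 was 6.70-fold lower with the drug in resistant (3.88 to 11.5) and 4.01-fold lower in sensitive cells (1.81 to 8.66). CD59 against CD46 was 3.61-fold higher with the drug in sensitive cells (1.81 to 7.49) and 1.15-fold in resistant cells (0.656 to 2.01).

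Summed over the 3 genes, scaled counts were 1189 without and 345 with the drug in resistant cells, and 290.2 and 270.2 in sensitive cells. How near the sensitive sums lie depends on the scaling, since total counts moved the median gene by -0.58 with the drug in that line. In untreated resistant cells the sum was set apart, through CD55. CD55 made up 83.8% of it there (81.6 to 85.9, Clopper-Pearson) and 40.8% with the drug (35.5 to 46.2), against 66.9% (62.1 to 71.5) and 14.7% (9.97 to 20.5) in sensitive cells. CD59 made up 13.3%, 49.9%, 24.2% and 77.5% in the same order, and CD46 between 2.87% and 9.38%. In raw counts, not divided by length, the make-up thus went from mostly CD55 to mostly CD59 with the drug in sensitive cells. In resistant cells it went to near equal count shares of these. Per kilobase, CD55 stood above CD59 in treated resistant cells, at 30.3 (25.5 to 35.8) against 20.9 (17.9 to 24.3).

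**Figure D3:**
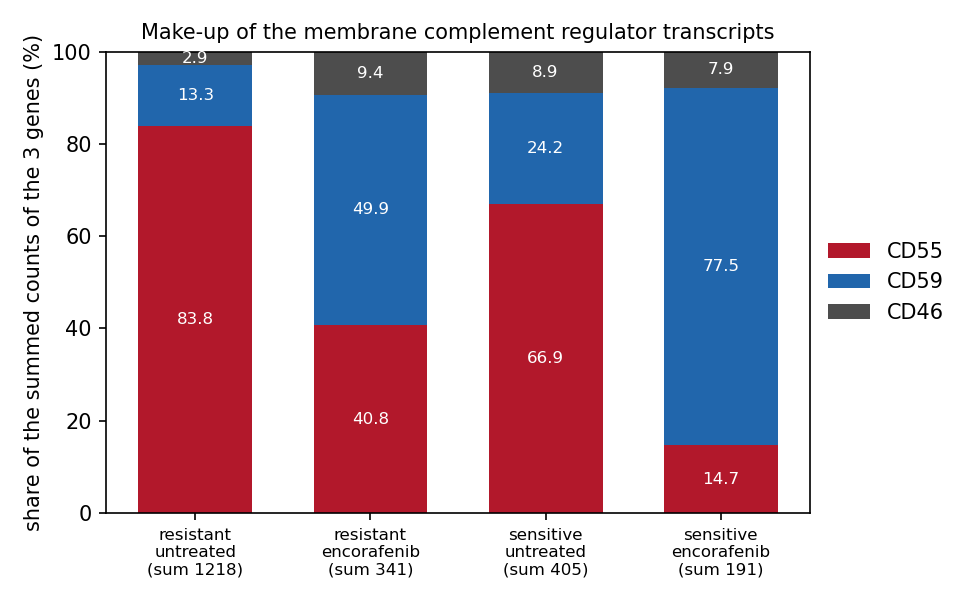
Share of each gene (%) in the summed raw counts of CD55, CD59 and CD46, 1 bar per library with the summed count under it. CD55 takes 83.8% in untreated resistant and 14.7% in treated sensitive cells, where CD59 takes 77.5%.

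Neighbouring genes of the complement regulator cluster on chromosome 1 gave no counts. Between CD55 and CD46 lie CR2, CR1 and CR1L, complement receptor genes and a related gene, and each had 0 counts in all 4 libraries. C4BPA and C4BPB, the chains of the serum C4b-binding protein, were also at 0 throughout. CD55 and CD46 thus stood apart from these 5 genes of the cluster.

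Among 15 other complement regulators listed, 2 were detected, and both had drug intervals above 0 in each line, as had 10.6% of protein-coding genes in the sensitive and 8.07% in the resistant line. CFI, factor I itself, the protease that CD46 serves, had 10 counts without and 32 with the drug in resistant cells, and 19 and 31 in sensitive cells. Its log2 drug ratio was 1.67 (0.82 to 2.59) in the sensitive line and 1.68 (0.67 to 2.92) in the resistant line, and its line ratios of -0.45 (-1.75 to 0.70) and -0.44 (-1.20 to 0.32) include 0. CLU, clusterin, which binds the forming pore, had 3, 12, 2 and 9 counts, with drug ratios of 2.91 (0.88 to 6.40) and 1.89 (0.16 to 4.51). An annotated microRNA, MIR6843, overlaps a CLU exon, so its counts are uncertain. SERPING1, VTN and THBD were at 0 in all 4 libraries. Neither CFI nor CLU was beyond 2-fold at the bound in any of the 4 pairs.

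Of 26 complement components, C3 alone reached 10 counts in a library. Resistant cells had 15 counts without and 10 with the drug, and sensitive cells 8 and 7. Its line ratio was 1.31 without the drug (0.02 to 2.80), and the other 3 intervals include 0. The pore subunits C6, C7, C8A, C8B and C9 were at 0 throughout.

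Receptors and binding partners of complement had 4 of 14 members detected and 0 beyond 2-fold in any pair. Beside 0.48% to 2.48% of protein-coding genes per pair and direction, nothing is read from that 0. ADGRE5, or CD97, the adhesion receptor that binds CD55, had 22, 31, 25 and 15 counts in the order used throughout, and its 4 intervals include 0. CALR, calreticulin, had 198, 247, 189 and 153 counts, with a drug ratio of 0.68 in sensitive cells (0.36 to 0.99). C1QBP, a mitochondrial protein first found as a binder of C1q, had 77, 59, 150 and 35 counts and a drug ratio of -1.10 there (-1.69 to -0.58). JAG1, a Notch ligand reported to bind CD46, had 12, 1, 5 and 0 counts, with a drug ratio in resistant cells of -3.01 (-8.95 to -0.78). The median ratios of the counted members were 0.39 and 0.26 between lines without and with the drug. With the drug they were 0.02 in resistant and -0.42 in sensitive cells, or 0.25 in the latter with JAG1 at its bound.

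Genes that build the GPI anchor used by CD55 and CD59 were mostly low. Of 29 listed, 12 reached 10 counts in a library, and 0 of these were beyond 2-fold in any pair. The share over protein-coding genes was 0.48% to 2.48% per pair and direction, so nothing is read from that count. Medians were 0.20 and 0.59 between lines without and with the drug. With the drug they were 0.09 in sensitive and 0.33 in resistant cells. GPAA1, a subunit of the transamidase that attaches the anchor, had 100, 153, 143 and 118 counts and drug ratios of 0.70 (0.34 to 1.07) and 0.66 (0.29 to 1.04). DPM3, of the complex that makes the mannose donor, had 37, 45, 25 and 20 counts and a line ratio of 1.00 without the drug (0.24 to 1.81). PIGM, a mannosyltransferase, had 20, 34, 49 and 21 counts, with a line ratio of -0.83 there (-1.67 to -0.07). DPM1, the catalytic subunit beside DPM3, had 33, 18, 27 and 5 counts and a drug ratio of -1.34 in sensitive cells (-3.19 to -0.05). PIGN, an ethanolamine phosphate transferase below that minimum with 2, 2, 1 and 8 counts, was beyond 2-fold with the drug in sensitive cells, at 3.48 (1.08 to 9.45).

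Other GPI-anchored surface proteins had ratios in both directions. Of 54 listed, 19 were detected. PRNP, the prion protein, was the 1 of 19 beyond 2-fold between untreated lines, beside 1.01% of protein-coding genes higher, with 144 counts in resistant and 67 in sensitive cells and a ratio of 1.54 (1.12 to 1.99). In resistant cells it had 70 counts with the drug, a ratio of -0.99 (-1.42 to -0.57), and in sensitive cells 45, a ratio of 0.41 (-0.17 to 0.97). With the drug in sensitive cells 1 of the 19 was higher and 2 were lower beyond 2-fold, beside 2.15% and 2.48% of protein-coding genes. LSAMP, a neuronal adhesion protein, was higher at 2.86 (1.99 to 3.90), and in resistant cells at 2.21 (1.09 to 3.71). NT5E, or CD73, the ecto-enzyme that makes adenosine, had 0 counts against 43, at least 7.26-fold lower against a floor of 3 counts per library. ART3 was lower at -3.36 (-9.28 to -1.34), with 1 count against 30. The more abundant MELTF, CD109 and GPC6 had 57 to 103, 53 to 91 and 45 to 105 counts and were not beyond 2-fold at the bound. GPC6 had drug ratios of 1.19 (0.59 to 1.80, sensitive line) and 1.26 (0.75 to 1.81, resistant line). CD109 stood at 0.63 (0.18 to 1.08) between untreated lines and at -0.67 (-1.19 to -0.18) with the drug in resistant cells. List medians were 0.12 and 0.26 between lines and 0.13 and -0.09 with the drug, so the CD55 ratios of -2.27 and -2.82 lay well below those of the median gene of the list.

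Surface proteins that regulate immune cells by other routes had 0 members beyond 2-fold in any pair. Per pair and direction 0.48% to 2.48% of protein-coding genes were, so nothing is read from that count. Of 14 listed, 6 were detected. HLA-E, a ligand of inhibitory natural killer receptors, had 33, 65, 44 and 52 counts and drug ratios of 1.22 (0.61 to 1.84, sensitive line) and 1.02 (0.40 to 1.68, resistant line). CD47, which inhibits phagocytosis, had 19, 26, 35 and 19 counts with 4 intervals that include 0, as did CD276 with 12, 20, 12 and 8. PVR, a ligand of TIGIT, had 22, 15, 22 and 2 counts, with a drug ratio of -2.19 in sensitive cells (-5.61 to -0.45).

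Blood and stromal cells, which make or carry complement proteins, left few marker counts. The leukocyte markers CD14 and CD3E were at 0 in all 4 libraries and PTPRC had 1 count in all. The 7 immune markers summed to 177 to 329 scaled counts, through HLA-DRA, which melanoma cells can also make, at 184 to 288 counts. Beside this, CD68 had 22 counts in untreated resistant against 6 in untreated sensitive cells and LYZ 13 against 1, a ratio of 3.62 (1.41 to 9.56), and with the drug CD68 had 17 counts in sensitive cells, a ratio of 2.41 (1.07 to 4.11). Their part in the CD55, CD59 and C3 differences was not tested. Hepatocyte, fibroblast and endothelial markers summed to at most 8.08 scaled counts per list and library, and the 3 erythroid markers were at 0.

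The drug ratios of CD55 lay within the range of those of MAPK output genes. At -2.27 CD55 was near the list median in sensitive cells. In resistant cells, at -2.82, it was below every member but SPRY4 by point value. That list had median drug ratios of -2.25 in sensitive and -1.54 in resistant cells, with 8 and 5 of 13 members lower beyond 2-fold, beside 2.48% and 1.52% of protein-coding genes. IER3, an immediate early gene, had 161, 23, 207 and 5 counts and drug ratios of -4.26 (-6.03 to -3.14) and -2.73 (-3.46 to -2.12). DUSP6, an ERK phosphatase, had 127, 24, 117 and 12 counts and ratios of -2.25 (-3.30 to -1.45) and -2.33 (-3.05 to -1.72). PHLDA1, a pleckstrin-domain protein, and DUSP4, another phosphatase, stood at -0.25 (-0.55 to 0.03) and -0.29 (-0.97 to 0.33) in sensitive cells. In resistant cells PHLDA1 and DUSP4 were at -0.72 (-0.95 to -0.49) and -0.61 (-1.07 to -0.17). The others lower beyond 2-fold in sensitive cells were SPRY2 at -1.86 (-2.86 to -1.06), EGR1 at -4.34 (-6.85 to -2.98), CCND1 at -2.85 (-4.29 to -1.85), and SPRY4, ETV4 and ETV5, each with 0 counts there and at least 18.9-, 10.98- and 5.07-fold lower against 3 counts per library. In resistant cells SPRY4 stood at -3.32 (-5.41 to -2.02), EGR1 at -1.80 (-2.51 to -1.18) and CCND1 at -1.98 (-2.49 to -1.52). Under the drug CCND1 was also the 1 member of 13 higher beyond 2-fold in the resistant line, at 2.15 (1.07 to 3.62), beside 0.682% of protein-coding genes. Between treated lines the list had a median of 0.72, or 0.33 with counts of 0 set to the floor of 3. Of its 13 intervals in that pair, 6 lay above 0 and 0 below, and CD55 stood at 1.81. Between untreated lines the list had a median of -0.20 and 0 members beyond 2-fold, beside 1.01% of protein-coding genes higher and 0.808% lower. Of its 13 intervals there, 4 lay above 0 and 2 below. CD55 stood at 2.36 in that pair.

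**Figure D4:**
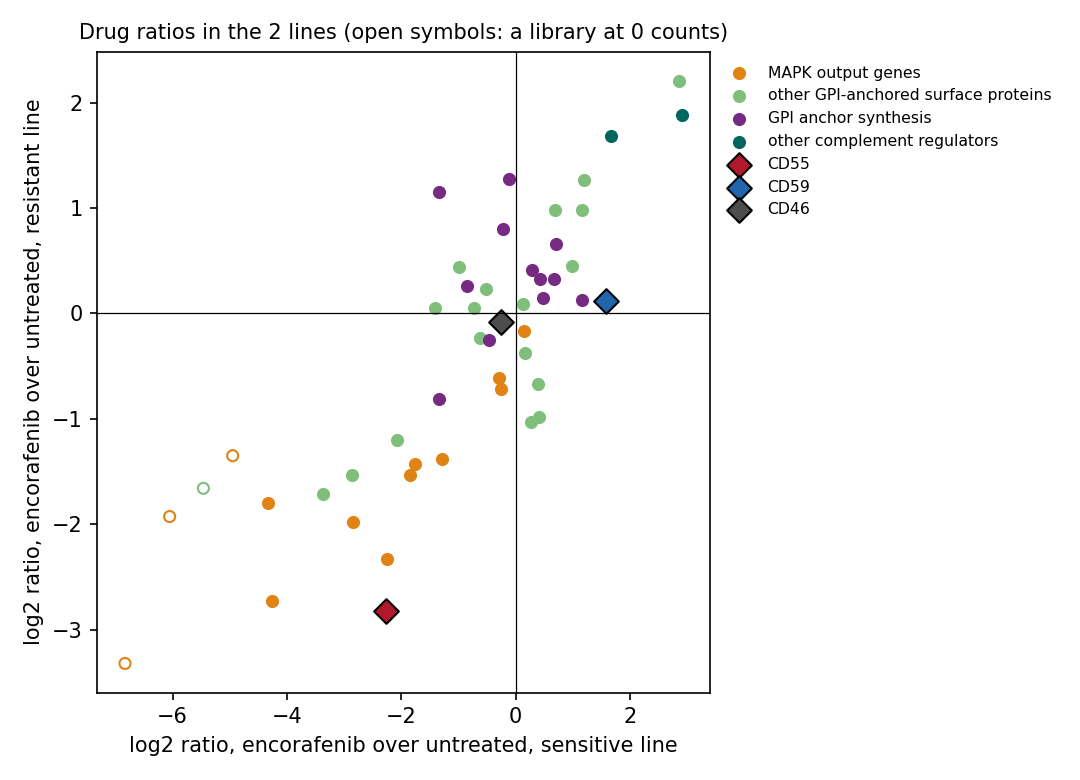
Log2 drug ratios in the sensitive (x axis) and resistant line (y axis) for detected genes of 4 lists and for CD55, CD59 and CD46 (diamonds); open symbols have a library at 0 counts, so their position depends on the prior count. CD55 at -2.27 and -2.82 lies within the range of the MAPK output genes, in the resistant line below all of them but SPRY4. CD46 lies near 0 in each line, and CD59 at 1.57 and 0.12.

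The genes nearest to CD55 were found by Euclidean distance between log2 scaled counts centred on each gene's mean over the 4 libraries, among the 2599 other protein-coding genes that summed to 100 counts or more. They were STC1, CCND1, SERPINE2, FERMT1 and TFPI2, at distances of 0.71, 0.81, 0.86, 0.86 and 0.96. STC1, a secreted glycoprotein hormone, had 111 counts without and 16 with the drug in resistant cells, and 21 and 4 in sensitive cells. CCND1, cyclin D1, had 189, 46, 106 and 7, and SERPINE2, a secreted protease inhibitor, 2098, 424, 1290 and 96. FERMT1, an integrin activator, had 108, 8, 26 and 1, and TFPI2, another secreted protease inhibitor, 95, 7, 11 and 2. Each of the 5 was highest in untreated resistant and lowest in treated sensitive cells, as CD55 was. Their choice by distance over these same libraries favours that, so nothing is read from it. Distance over 4 libraries describes their levels and says nothing of a common regulator.

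The same measure gives the distance of the other regulators from CD55. CD46 stood at place 506 of the 2599, at a distance of 2.88, and CD59 at place 2215, at 3.80. The genes nearest to CD46 were SSR1, COX6B1 and CKAP4, at 0.03, 0.05 and 0.07. SSR1, a subunit of the translocon-associated complex, had 43, 40, 45 and 19 counts, and COX6B1, a cytochrome oxidase subunit, 118, 103, 119 and 51. Those nearest to CD59 were C1orf122, ADI1 and MCFD2, at 0.03, 0.15 and 0.17, with 17 to 52 counts per library. MCFD2, a cargo receptor partner for secreted clotting factors, had 36, 35, 21 and 28. At these counts the order of near neighbours lies within counting error.

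**Figure D5:**
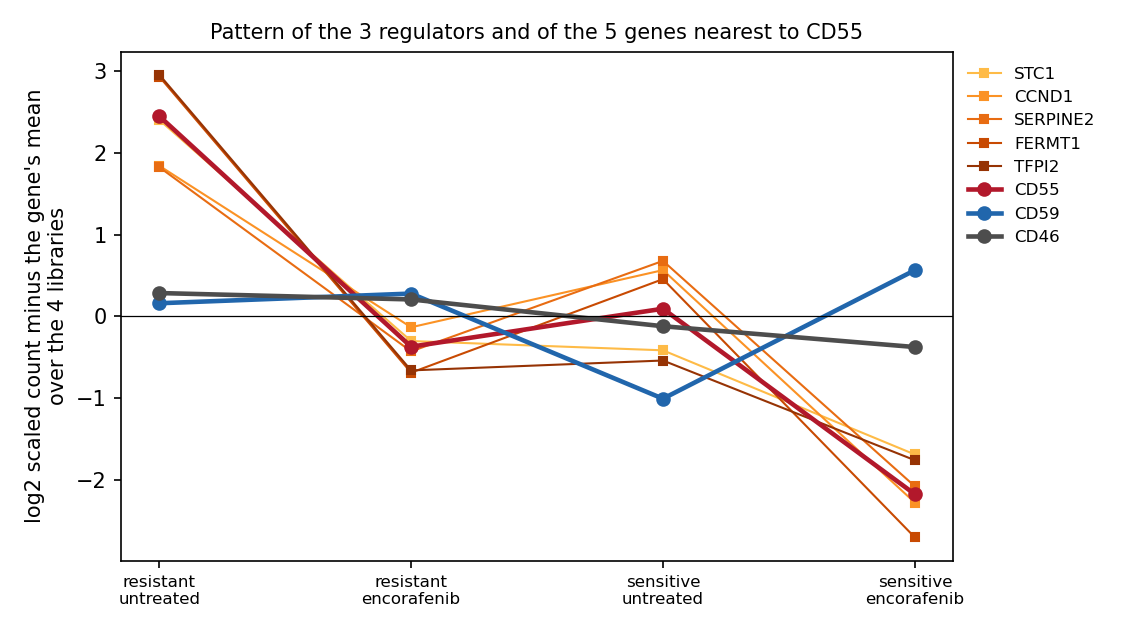
Log2 scaled counts minus each gene's mean over the 4 libraries (y axis) for CD55, CD59, CD46 and the 5 protein-coding genes nearest to CD55; lines only join the points of a gene. CD55 and its 5 neighbours, chosen by distance over these libraries, are highest in untreated resistant and lowest in treated sensitive cells. CD59 has its highest point there under TMM scaling, with an interval that overlaps both resistant libraries, and under total counts treated resistant cells are higher.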

How the data were processed

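The authors deposited 1 table of raw counts per gene for each of 4 libraries, with whole numbers and no scaling. RNeasy Mini kits gave the RNA and SMARTer smRNA-Seq kits the libraries for an Illumina NextSeq instrument, per the labels' protocols. Reads were placed on hg19 (submitters' processing notes), and the sources used here name no aligner, counting program or strand setting. MicroRNA tables were not used.

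TMM factors (edgeR 4.0.16, R 4.3.3) came from entries with at least 10 counts in at least 1 library. For 4 pairs of libraries log2 ratios were computed with 0.5 added as prior count. Their 95% intervals are Clopper-Pearson limits conditional on the pair's summed count (scipy 1.17.1). They were checked on simulated Poisson counts, which hold no spread between replicates. "Beyond 2-fold" means that the interval's near bound was 1 or more from 0 in log2. Differences of drug ratios have delta-method intervals. With 1 library per group there is no test and no p-value. Reads carry no molecular identifiers, so PCR copies of a molecule can be counted more than once.

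List medians use detected members (at least 10 counts in a library) with more than 3 counts in a library of the pair. Named were cluster genes, the nearest genes (5 for CD55, 3 for CD46 and for CD59), and in each list the 4 most abundant members and those beyond 2-fold in a pair. Some cluster and marker genes are not reported here. Members and the 15 lists were chosen with earlier results of these data known. Lengths and overlaps came from GENCODE 29, and promoters from RefSeq. Alternatives were size factors as in DESeq2, total counts, TMM on protein-coding genes, and 2 other count filters.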

Additional observations from a re-analysis of the deposited data

Results flagged for a closer look

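Without encorafenib CD59 was higher in the resistant line, at 1.17 in log2 (0.80 to 1.55), and with it the ratio was -0.29 (-0.61 to 0.04), a difference of -1.45 (-1.94 to -0.97). It stands out because the point values have opposite signs, and the difference was not tested. The treated ratio has an interval that includes 0, lies just below 0 with size factors as in DESeq2 (-0.67 to -0.01) and with a minimum of 50 counts (-0.69 to -0.04), and is 0.52 (0.19 to 0.84) under total counts, the direction of the untreated pair.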

How the results depend on the processing

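Of 70 values of the 3 genes under 5 alternatives, 67 kept their sign and 65 lay within the main counting interval. CD55 was beyond 2-fold in all 4 pairs under each alternative. The exceptions came with scaling by total counts, which moved the median gene by 0.10 and 0.80 between lines without and with the drug and by -0.58 and 0.12 with the drug in sensitive and resistant cells. It took the treated line ratio to 2.61 for CD55 and 0.52 for CD59, the drug ratio of CD59 in sensitive cells to 0.99, and the difference of drug ratios to 0.15 for CD55 and -0.75 for CD59. The drug ratio of CD46 in resistant cells also changed sign, within its interval, and its treated line ratio was 1.38 (0.48 to 2.40). With size factors as in DESeq2 and with a minimum of 50 counts, the intervals of the CD59 treated line ratio and of the CD55 difference of drug ratios lay just below 0. List medians became 1.06 (treated lines) and -1.003 (drug, sensitive) for complement receptors, -0.45 (drug, sensitive) for other GPI-anchored proteins and 1.53 (treated lines) for MAPK output genes. Protein-coding genes beyond 2-fold became 386 higher and 6 lower between treated lines (from 54 and 38) and 90 higher and 534 lower with the drug in sensitive cells (from 170 and 196). With a minimum of 50 counts fewer genes were tested, and the same counts were 40 and 21 between untreated lines, 21 and 14 between treated lines, 83 and 110 with the drug in sensitive and 43 and 75 in resistant cells. CD46 never reached 50 counts and has no value there. Beyond the scalings' own construction the cause was not tested. No paired analysis was possible because each group has 1 library. With 15 to 36 counts per library, CD46 had TMM-scaled intervals that include 0 in all 4 pairs.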
